A study of Rattus norvegicus with 23 samples.

Results

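The interleukin 1 (IL-1) family and its receptors were followed across all 23 arrays of the series as 10 genes: the ligands Il1a, Il1b, Il18 and Il33, the receptor antagonist Il1rn, the receptors Il1r1, Il1rap and Il1rl1, the decoy receptor Il1r2, and Casp1, the protease that processes IL-1β and IL-18. A probe set counted for a gene where the array annotation names that gene alone, which gave 16 probe sets for the 10 genes, out of 20826 probe sets for 14217 genes in all. The genes were chosen with their values in these arrays known, and where a gene had several probe sets 1 was selected on its mean over the 23 arrays, the highest standing for the gene. That mean was 10.46 for the chosen probe set of Il1r1 on the log2 scale, against 9.71 and 9.63 for its other probe sets. For Il1rl1 it was 9.60 against 8.32, for Il1rap 8.82 against 7.72, for Il33 7.38 against 6.74 and for Il1a 6.05 against 5.54. Il1b, Il18, Il1rn, Il1r2 and Casp1 have 1 probe set each. Beyond this choice, the mean over all arrays is used only in the alternative that drops genes with a low mean.

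IL-1α and IL-1β are early signals of inflammation, and both bind the receptor IL1R1, which then recruits the accessory protein IL1RAP and signals through MYD88 and IRAK kinases to NF-κB. The secreted antagonist IL1RN occupies IL1R1 without signaling, and IL1R2 binds IL-1 as a decoy that lacks a signaling domain. IL-33 signals through IL1RL1, also called ST2, together with the same accessory protein. IL-1β and IL-18 are made as inactive precursors that caspase 1 cleaves inside inflammasomes. In the liver, Kupffer cells (KCs), the resident macrophages, are a main source of IL-1β and IL-18, while hepatocytes answer IL-1 by making acute phase proteins.

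The 8 groups came from primary rat cells. Liver sinusoidal endothelial cells (LSECs) and hepatocytes were taken from a 3D liver model of hepatocytes, LSECs and KCs (3DHLK) and from a 3D model of hepatocytes and LSECs only (3DHL), and KCs were taken from 3DHLK models, all at day 12. KC monolayers were taken at day 3; the sample labels describe them as KCs before 3D culture. Hepatocytes from collagen sandwiches (CS) and from hepatocyte monolayers (HM) were taken at day 12. Each group had 3 arrays, apart from KCs of the 3DHLK model with 2, because only these passed the authors' test of RNA quality. According to the study's methods, hepatocytes and LSECs were isolated together from female Lewis rats, while KCs were bought as cryopreserved primary cells. The cell types of the 3D models were separated with magnetic beads against SE-1 for LSECs and CD163 for KCs. The labels name no treatment, and they leave unsaid whether replicates are of separate animals or cultures. The p-values therefore rest on the spread among these arrays alone, and that spread may be technical.

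Values are log2 intensities after robust multi-array averaging (RMA), which puts all arrays on a common distribution. Array medians lay between 7.41 and 7.53. Replicates correlated at 0.987 to 0.998 across probe sets in 7 groups and at 0.942 to 0.969 in KC monolayers. Marker genes did not follow every label. In KCs of the 3DHLK model 14 measured of 15 listed macrophage markers averaged 7.08, close to LSECs of that model (7.05) and HM (6.90), against 11.90 in KC monolayers. Adgre1, which encodes F4/80, was at 5.38 in KCs of the 3DHLK model, against 12.91 in KC monolayers. All 11 measured hepatocyte markers were above 8 in every group other than KC monolayers, the LSEC and KC fractions included, whose means were 13.55 in LSECs of the 3DHLK model, 13.35 in LSECs of the 3DHL model and 12.71 in KCs of the 3DHLK model. None of 11 measured endothelial markers reached 8 in LSECs of either model. Stab2 was at 5.98 and 5.85 and Kdr at 6.12 and 6.08 in LSECs of the 3DHLK and the 3DHL model. The names of the fractions below are therefore those of the labels. In such bulk samples, fewer cells of a type and less RNA per cell cannot be told apart.

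**Figure D1:**
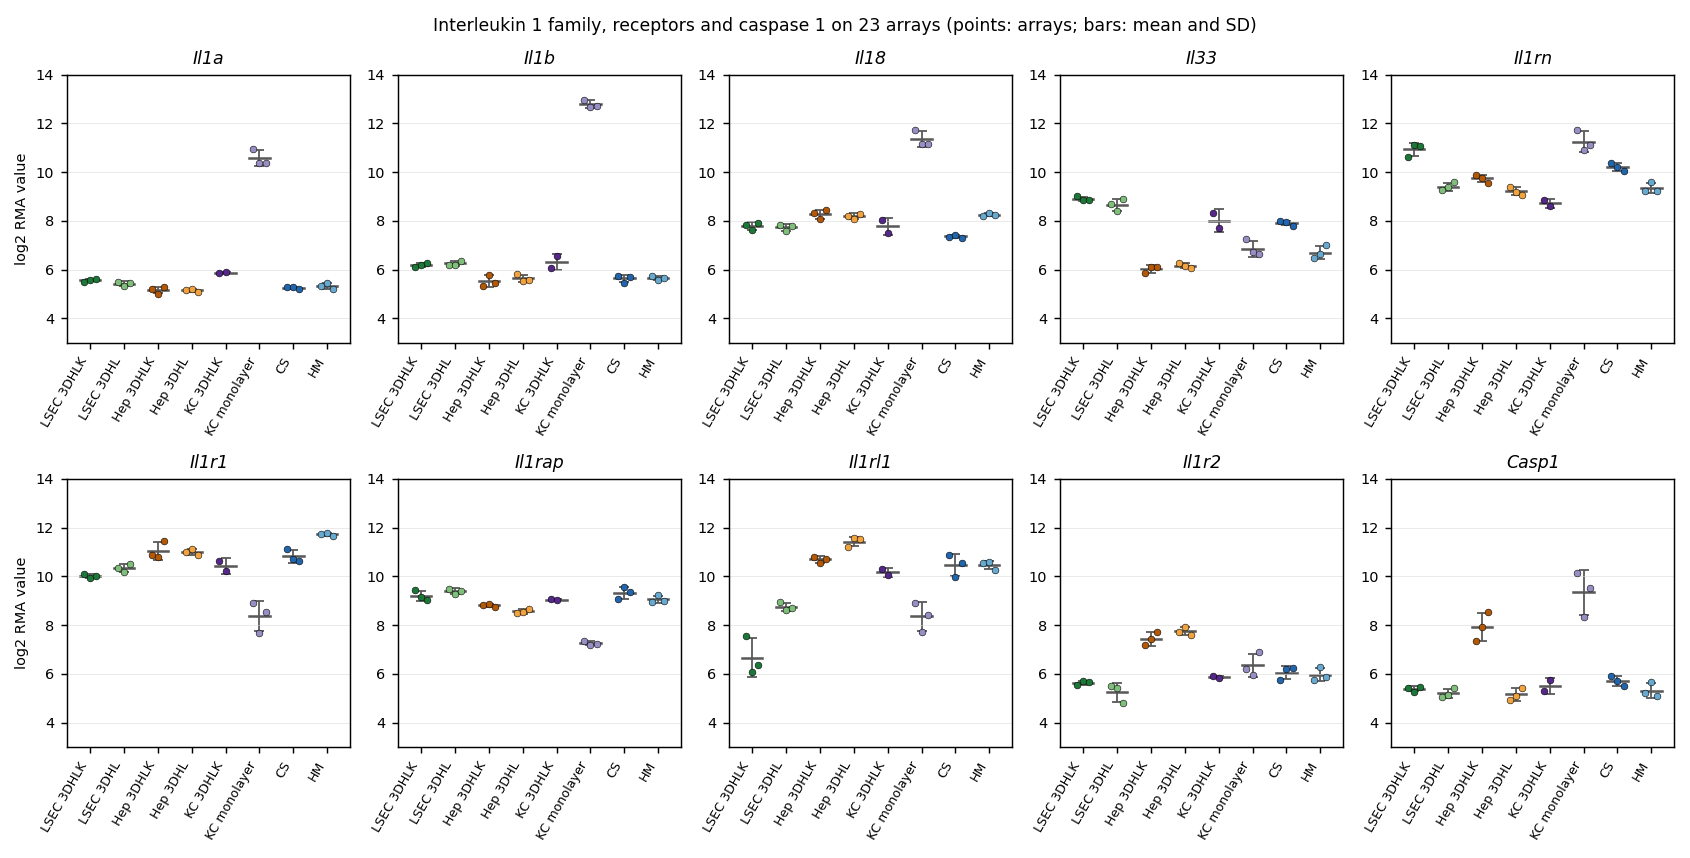
RMA values (log2, vertical axis) of the 10 genes in the 8 groups, with a point for each array and a bar for the mean with its SD. Il1a, Il1b and Il18 were high in KC monolayers only, Casp1 in these and in 3DHLK hepatocytes, and Il33 was highest in both LSEC groups.

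Between KCs of the 3DHLK model and KC monolayers, 9 of the 10 genes were called at an adjusted p under 0.05 (limma over all 23 arrays, Benjamini-Hochberg over 14217 genes), 4 higher and 5 lower in the 3DHLK model, while 65.2% of all genes were called in this comparison, 44.5% higher and 20.8% lower. The ligands Il1a, Il1b and Il18, the antagonist Il1rn and Casp1 were lower, and Il33 and the receptors Il1r1, Il1rap and Il1rl1 were higher. The KC groups differ in day (12 against 3) and in culture, and bead separation is described for the 3D models only. These differences cannot be told apart. The median log2 change of the 10 genes was -1.50, against 0.27 over all genes. That shift of all genes was -0.36 with the arrays centred on housekeeping genes, where 29.3% of the called genes were higher in place of 68.2%, and the 9 called family members kept their sign and call. Between hepatocytes of the 3DHLK and the 3DHL model 1 of the 10 genes, Casp1, was called on the chosen probe sets, close to the 11.5% of all genes (7.72% higher, 3.76% lower). Without KC monolayers in the fit 48.8% of the called genes were higher there, against 67.3%. Il1rl1 and Il1rn were called in some other fits, given below. Between LSECs of the 3DHLK and the 3DHL model 2 were called, Il1rn higher and Il1rl1 lower, against 7.47% of all genes (3.58% higher, 3.89% lower). Il1rap was not called on its chosen probe set (-0.19 ± 0.13, adjusted p = 0.45) but was on its second (-0.56 ± 0.16, adjusted p = 0.039) and on the mean of both (-0.38, adjusted p = 0.022, limma). The median log2 changes of the 10 genes were 0.03 in hepatocytes and 0.10 in LSECs, against -0.08 and 0.04 over all genes.

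**Figure D2:**
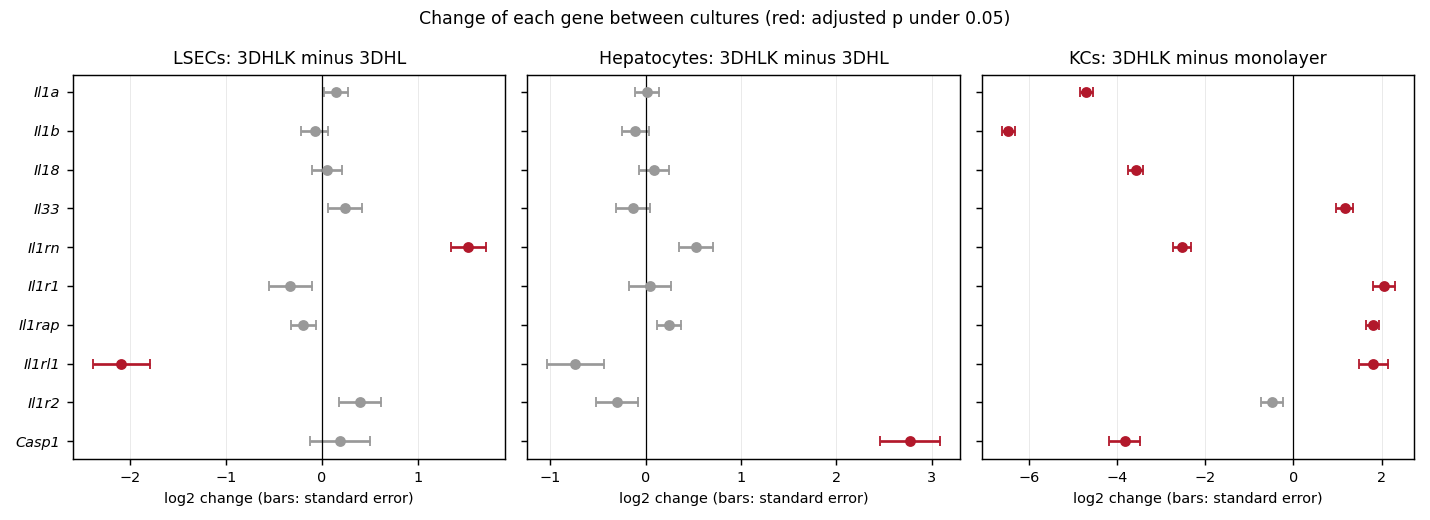
Log2 change of each gene (horizontal axis, bars are standard errors) in LSECs of the 3DHLK minus the 3DHL model, in hepatocytes of the 3DHLK minus the 3DHL model and in KCs of the 3DHLK model minus KC monolayers. Points in red passed an adjusted p of 0.05, which were 2, 1 and 9 of 10 genes; the horizontal scales differ between the panels.

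Il1b had the widest span of the family. It read 6.08 and 6.55 in KCs of the 3DHLK model, against 12.97, 12.67 and 12.70 in KC monolayers. The groups lay far apart, with a log2 change of -6.46 ± 0.16 (SE) and an 88.1-fold lower value in the 3DHLK model (adjusted p = 9.37e-19, limma). Without any 1 of these 5 arrays the log2 change lay between -6.70 and -6.23. LSECs gave 6.09, 6.17 and 6.26 in the 3DHLK model and 6.20, 6.19 and 6.36 in the 3DHL model. Hepatocytes gave 5.33, 5.79 and 5.46 in the 3DHLK model and 5.82, 5.52 and 5.57 in the 3DHL model, 5.73, 5.47 and 5.70 in CS and 5.74, 5.57 and 5.66 in HM. Thus the 3 KC monolayers stood alone at the top, KCs of the 3DHLK model overlapped both LSEC groups, and the 4 hepatocyte groups overlapped each other below them. LSECs were 1.57-fold above hepatocytes in the 3DHLK model (adjusted p = 0.00053) and 1.53-fold in the 3DHL model (adjusted p = 0.00175, limma). Il1b was low in these groups. Its array percentiles were 26.6 to 28.3 for 3DHLK LSECs, against 16.1 to 23.9 for 3DHLK hepatocytes. The 3DHL groups had 27.7 to 30.5 against 19.3 to 23.4. In the 3DHLK comparison its log2 change was 0.65, beside medians of 0.58 for lymphocyte, 0.58 for mast cell and -1.09 for macrophage markers. The part of low signal in these calls was not tested.

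Il1a, which lies next to Il1b on rat chromosome 3, followed the same order at its upper end. It read 5.85 and 5.89 in KCs of the 3DHLK model, against 10.94, 10.37 and 10.39 in KC monolayers, a 25.9-fold difference (log2 change -4.70 ± 0.14, adjusted p = 2.40e-17, limma). The second probe set gave the same direction, with a log2 change of -3.43 ± 0.18. All other arrays lay between 5.0, in hepatocytes of the 3DHLK model, and 5.60, in LSECs of the 3DHLK model. Within the 3DHLK model Il1a was low, at array percentiles 17.9 to 18.6 in LSECs, 13.7 to 16.5 in hepatocytes and 20.7 to 21.7 in KCs. The groups LSECs of the 3DHL model, HM, CS and the hepatocytes of both 3D models overlapped each other in order. Within the 3DHLK model, LSECs were 1.32-fold above hepatocytes (adjusted p = 0.00998), and hepatocytes were 1.64-fold below KCs (adjusted p = 0.00031, limma); neither call held with cyclic loess normalization (adjusted p = 0.49 and 0.099), and the first was lost without hepatocyte replicate 2 (0.057).

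The 250 bases before the start of Il1b and Il1a are shown because both genes were high in the same group and lie side by side. They are from RefSeq, in the GRCr8 build, and both genes are on the minus strand, Il1b at chr3:137036582-137036831 and Il1a at chr3:136990018-136990267.
Il1b: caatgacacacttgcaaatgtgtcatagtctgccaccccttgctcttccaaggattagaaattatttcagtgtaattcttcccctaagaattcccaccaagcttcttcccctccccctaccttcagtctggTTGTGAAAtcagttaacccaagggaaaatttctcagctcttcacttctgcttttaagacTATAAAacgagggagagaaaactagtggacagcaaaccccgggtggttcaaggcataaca
Il1a: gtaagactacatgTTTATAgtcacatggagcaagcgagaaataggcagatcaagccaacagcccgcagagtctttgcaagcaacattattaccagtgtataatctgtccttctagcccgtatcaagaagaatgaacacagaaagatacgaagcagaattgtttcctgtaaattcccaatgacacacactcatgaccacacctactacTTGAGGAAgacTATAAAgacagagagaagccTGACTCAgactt
Capitals mark matches, on either strand, to the TATA box letters TATAAA, the PU.1 core GAGGAA, the C/EBP letters TTNNGNAA and the AP-1 letters TGANTCA. Il1b held TATAAA 60 to 55 bases and a C/EBP match, TTGTGAAA, 119 to 112 bases before its start. Il1a held TATAAA 32 to 27 bases before its start, again on the other strand 237 to 232 bases before it, and the AP-1 match TGACTCA 12 to 6 bases before it. Its TTGAGGAA, 43 to 36 bases before the start, is an overlap of a C/EBP and a PU.1 match. Of 33469 rat promoters of this length, 12.9% held TATAAA, 23.3% GAGGAA, 37.2% TTNNGNAA and 6.34% TGANTCA. The NF-κB consensus, found in 3.54% of them, did not match in either window, which says only that these letters are not there.

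Il18 was the third ligand that was highest in KC monolayers. It read 8.03 and 7.52 in KCs of the 3DHLK model, against 11.74, 11.15 and 11.16 in KC monolayers, 12.0-fold lower in the 3DHLK model (log2 change -3.58 ± 0.17, adjusted p = 5.87e-14, limma). Hepatocytes gave 8.33, 8.07 and 8.43 in the 3DHLK model and 8.22, 8.06 and 8.29 in the 3DHL model, 7.35, 7.42 and 7.31 in CS and 8.22, 8.30 and 8.25 in HM. Its lowest arrays were thus the 3 of CS, below every other array of the series. CS was 1.86-fold below HM (log2 change -0.89 ± 0.15, adjusted p = 0.00019), and hepatocytes of the 3DHL model were 1.77-fold above CS (adjusted p = 0.00049, limma). LSECs gave 7.82, 7.62 and 7.91 in the 3DHLK model and 7.82, 7.57 and 7.80 in the 3DHL model, which overlapped KCs of the 3DHLK model. LSECs were 1.41-fold below hepatocytes in the 3DHLK model (adjusted p = 0.00912) and 1.38-fold below them in the 3DHL model (adjusted p = 0.0225, limma). Both of these calls were lost without LSEC replicate 2 of that model (adjusted p = 0.051 and 0.1), and the second also without hepatocyte replicate 1 (0.058) or 3 (0.086) of the 3DHL model.

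Casp1 had the largest log2 change of the family between hepatocytes of both 3D models. It read 7.36, 7.91 and 8.52 in hepatocytes of the 3DHLK model, against 4.93, 5.09 and 5.44 in hepatocytes of the 3DHL model. No arrays overlapped, and Casp1 was 6.85-fold higher with KCs in the model (log2 change 2.78 ± 0.32, adjusted p = 1.17e-06, limma). LSECs gave 5.43, 5.27 and 5.48 in the 3DHLK model and 5.06, 5.14 and 5.42 in the 3DHL model. KCs gave 5.29 and 5.74 in the 3DHLK model, against 10.14, 8.34 and 9.53 in KC monolayers, 14.2-fold lower (log2 change -3.83 ± 0.35, adjusted p = 3.77e-09). CS gave 5.92, 5.69 and 5.48 and HM 5.20, 5.65 and 5.08. High values were thus found in KC monolayers and 3DHLK hepatocytes, whose arrays overlapped each other, and the 6 other groups overlapped in a chain below 6. Within the 3DHLK model, hepatocytes were 5.33-fold above KCs (log2 change 2.42 ± 0.35, adjusted p = 1.04e-05) and LSECs 5.80-fold below hepatocytes (log2 change -2.54 ± 0.32, adjusted p = 9.06e-07, limma). The LSEC change minus the hepatocyte change between both models was -2.59 ± 0.45 log2 units (adjusted p = 0.0004 for this interaction). It was called for 3 of the 10 family members, Il1rn higher and Casp1 and Il1rl1 lower, and for 10.3% of all genes (3.51% higher, 6.81% lower). Of the called genes 34.0% were higher, against 53.7% in a fit without KC monolayers.

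Markers of other cells moved with Casp1 in the hepatocyte fraction, and their part in the result was not tested. Of 14 measured macrophage markers, 8 were higher and none lower in hepatocytes of the 3DHLK than of the 3DHL model, and the sum of their log2 values was 108.2 to 114.0 against 95.5 to 99.1. Mrc1, the macrophage mannose receptor, read 9.08, 9.30 and 9.68 in the 3DHLK model, against 6.42, 7.03 and 6.74 in the 3DHL model. Adgre1 read 5.59, 5.89 and 6.42 against 4.43, 4.54 and 4.30, and Clec4f, a Kupffer cell marker, 5.91, 5.53 and 5.79 against 6.0, 5.85 and 5.69. In KC monolayers Adgre1 was at 12.91 and Clec4f at 11.61. Of 12 markers of stellate cells and fibroblasts, 8 were higher and none lower, with sums of 117.1 to 119.4 in the 3DHLK model and 90.6 to 94.5 in the 3DHL model. Lum, a matrix proteoglycan, averaged 8.55 in the 3DHLK model and 3.61 in the 3DHL model. Of 11 endothelial markers 5 were higher, of 7 mast cell markers only Hdc, of 5 measured neutrophil markers only S100a8, and of 5 cholangiocyte markers only Spp1, while 1 of 11 hepatocyte markers, Ahsg, was lower and none of 8 lymphocyte markers was called in limma (1 had an unadjusted p under 0.05). No marker is at 0 on this scale.

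**Figure D3:**
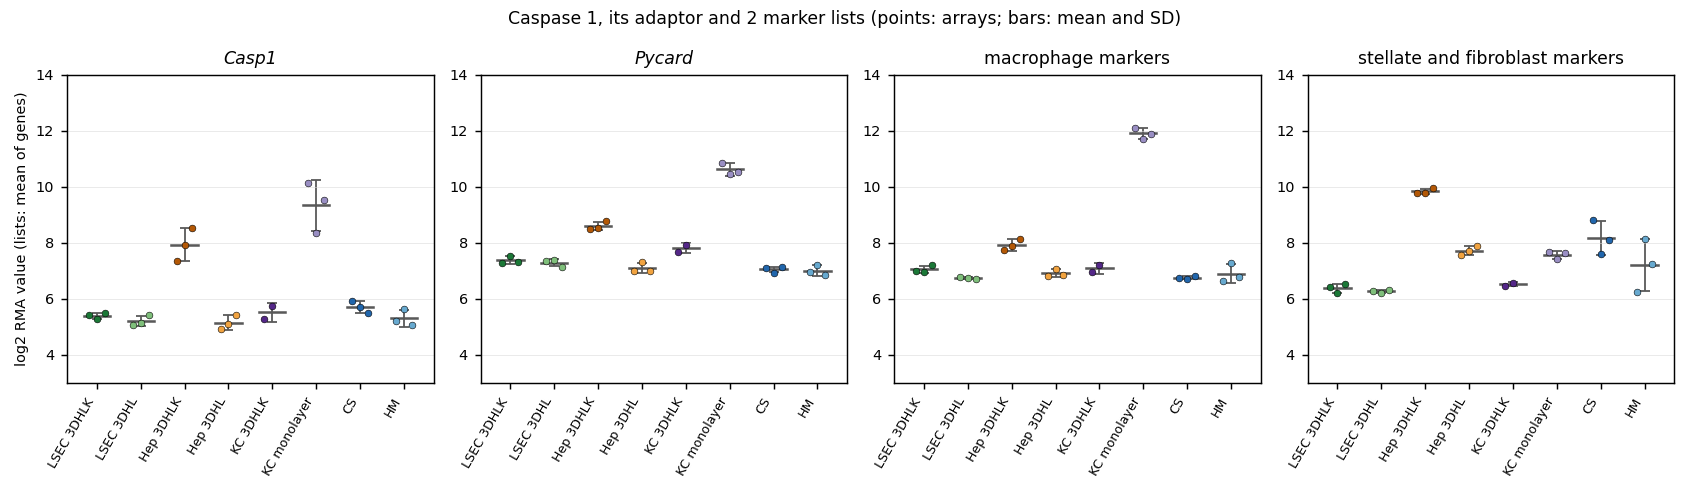
RMA values (log2, vertical axis) of Casp1 and its adaptor Pycard and the mean over the macrophage marker list (14 genes) and the list for stellate cells and fibroblasts (12 genes), with a point for each array and a bar for the mean with its SD. Hepatocytes of the 3DHLK model stood above those of the 3DHL model in all 4 panels, and KC monolayers were highest for Casp1, Pycard and the macrophage list.

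The promoter of Casp1 is shown because this gene had the largest change of the family between hepatocytes of both 3D models. It is at chr8:10872580-10872829 on the plus strand of GRCr8 (RefSeq), next to Casp4 and Casp12.
Casp1: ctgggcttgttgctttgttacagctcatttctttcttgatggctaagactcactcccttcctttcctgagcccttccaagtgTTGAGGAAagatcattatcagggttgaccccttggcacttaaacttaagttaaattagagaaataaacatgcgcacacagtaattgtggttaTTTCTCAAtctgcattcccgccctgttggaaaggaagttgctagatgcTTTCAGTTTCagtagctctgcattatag
The last capitals, TTTCAGTTTC, match an interferon regulatory factor (IRF) element, a pair of GAAA with 2 bases between them, on the other strand 28 to 19 bases before the start, which 3.41% of rat promoters of this length hold. As in Il1a, TTGAGGAA is an overlap of a C/EBP and a PU.1 match, here 168 to 161 bases before the start, and TTTCTCAA is a C/EBP match on the other strand.

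Il33, a nuclear cytokine that is released from damaged endothelial and epithelial cells, was highest in LSECs and lowest in hepatocytes of the 3D models. LSECs gave 9.0, 8.86 and 8.84 in the 3DHLK model and 8.69, 8.39 and 8.90 in the 3DHL model. Hepatocytes gave 5.85, 6.12 and 6.11 in the 3DHLK model and 6.26, 6.15 and 6.07 in the 3DHL model, 7.98, 7.94 and 7.80 in CS and 6.47, 6.62 and 7.0 in HM. Each model kept its LSECs apart from its hepatocytes, with overlap between the models within each cell type. LSECs exceeded hepatocytes 7.33-fold in the 3DHLK model (log2 change 2.87 ± 0.18, adjusted p = 2.85e-11) and 5.65-fold in the 3DHL model (2.50 ± 0.18, adjusted p = 8.62e-10, limma), and the second probe set gave log2 changes of 2.24 and 2.07. For Il33, CS was 2.32-fold above HM (log2 change 1.22 ± 0.18, adjusted p = 3.24e-05), and hepatocytes of the 3DHL model were 3.36-fold below CS (-1.75 ± 0.18, adjusted p = 2.70e-07).

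Il33 read 8.34 and 7.69 in KCs of the 3DHLK model, against 7.24, 6.70 and 6.62 in KC monolayers, 2.23-fold higher in the 3DHLK model (log2 change 1.16 ± 0.20, adjusted p = 2.94e-05, limma). The second probe set did not follow, with 6.85 and 6.86 in KCs of the 3DHLK model, against 7.13, 6.93 and 6.71 in KC monolayers (log2 change -0.069 ± 0.18, adjusted p = 0.76). LSECs of the 3DHLK model were 1.85-fold above the KCs of that model (log2 change 0.89 ± 0.20, adjusted p = 0.0031), which was lost without KC replicate 2 (0.56, adjusted p = 0.16, limma), while the second probe set gave 1.06 ± 0.18.

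Il1rl1 encodes the IL-33 receptor, and its probe sets differed in several comparisons. The chosen probe set read 7.57, 6.09 and 6.34 in LSECs of the 3DHLK model, against 8.95, 8.62 and 8.70 in LSECs of the 3DHL model. Hepatocytes gave 10.81, 10.55 and 10.72 in the 3DHLK model and 11.20, 11.57 and 11.52 in the 3DHL model, 10.89, 9.99 and 10.53 in CS and 10.57, 10.57 and 10.25 in HM. KCs gave 10.30 and 10.03 in the 3DHLK model, against 8.91, 7.73 and 8.42 in KC monolayers. The 4 hepatocyte groups and the KCs of the 3DHLK model were high, LSECs of the 3DHL model overlapped KC monolayers, and LSECs of the 3DHLK model lay below all others. In LSECs, Il1rl1 was 4.25-fold lower in the 3DHLK than in the 3DHL model (log2 change -2.09 ± 0.30, adjusted p = 8.67e-05), and in the 3DHLK model LSECs were 16.3-fold below hepatocytes (log2 change -4.02 ± 0.30, adjusted p = 4.49e-10, limma). The KCs of that model were 3.51-fold above KC monolayers (log2 change 1.81 ± 0.33, adjusted p = 6.52e-05).

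The gene encodes a membrane receptor and a shorter secreted form, and the sources used here do not say which of them each probe set reads. On the second probe set LSECs gave 7.95, 7.79 and 8.13 in the 3DHLK model, against 7.93, 7.58 and 8.12 in the 3DHL model (log2 change 0.081 ± 0.19, adjusted p = 0.88, limma). Hepatocytes gave 8.07, 7.85 and 8.18 in the 3DHLK model, against 8.82, 9.30 and 9.03 in the 3DHL model, with a log2 change of -1.02 ± 0.19 (adjusted p = 0.00048), while the chosen probe set gave -0.74 ± 0.30 (adjusted p = 0.12). The chosen probe set was called in a fit of these 6 arrays alone (adjusted p = 0.0055), and so was the mean of both probe sets (-0.88, adjusted p = 0.0032). Both probe sets thus read lower in 3DHLK than in 3DHL hepatocytes with no overlap of arrays, and they disagreed in LSECs. The LSEC change minus the hepatocyte change was -1.35 ± 0.42 on the chosen probe set (adjusted p = 0.043) and 1.10 ± 0.26 on the second (adjusted p = 0.0081), of opposite sign. On the chosen probe set this call was lost in 11 of 12 fits without 1 array. In CS the second probe set read higher than in HM (log2 change 0.76 ± 0.19, adjusted p = 0.0050), where the chosen one gave 0.0082 ± 0.30. Against KC monolayers the second probe set also gave higher values in KCs of the 3DHLK model (log2 change 1.09 ± 0.21), and LSECs were not called against hepatocytes of the 3DHLK model on it (-0.077 ± 0.19, adjusted p = 0.73).

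**Figure D4:**
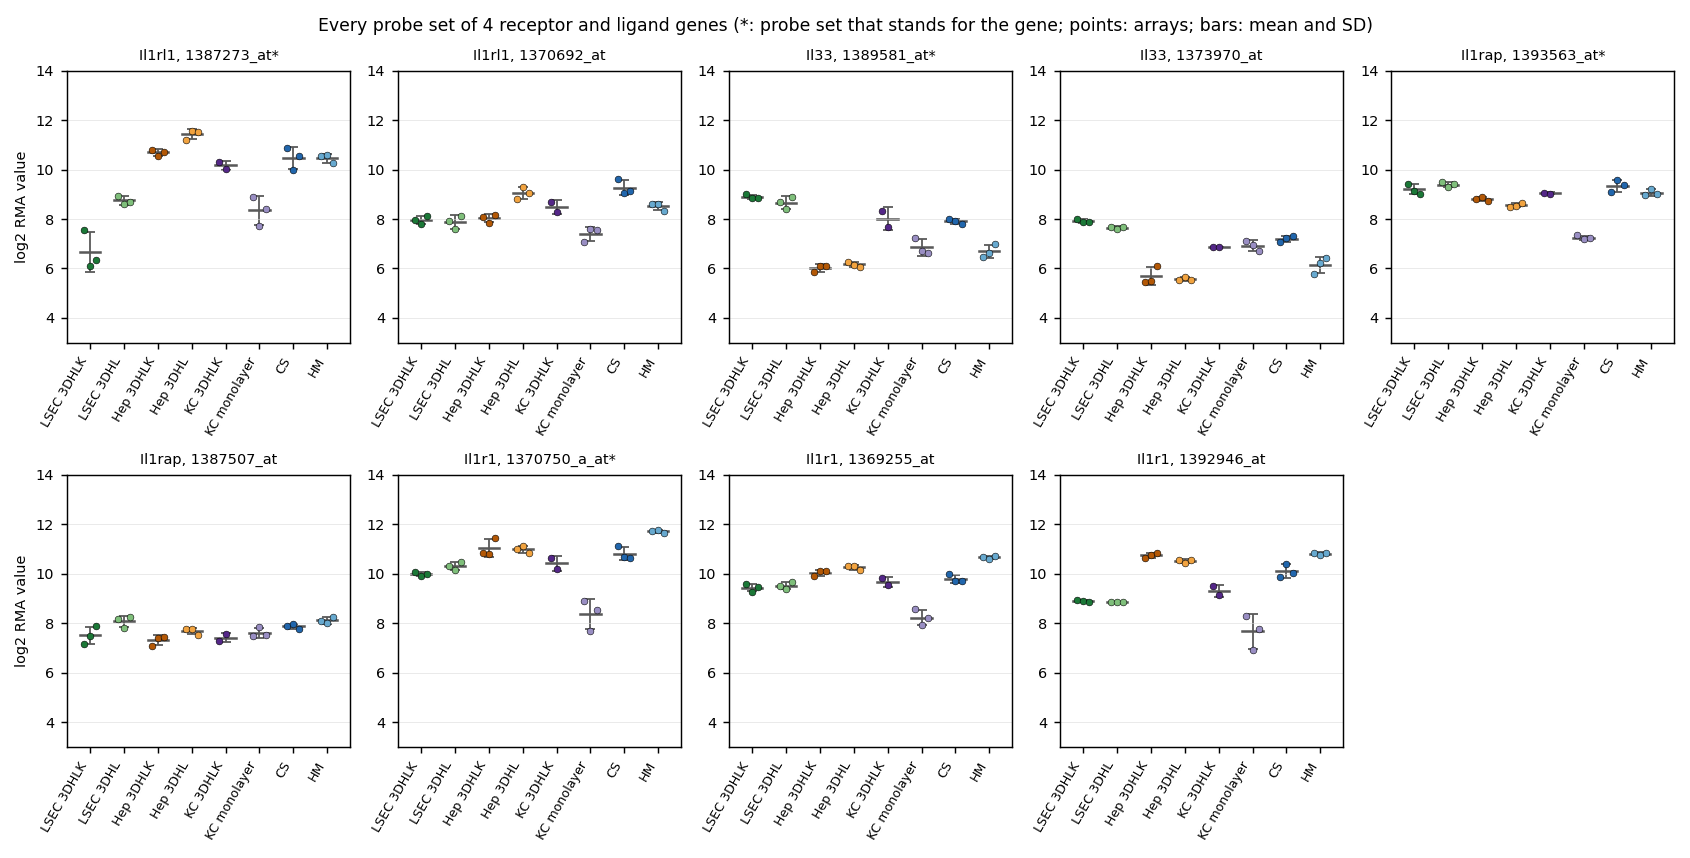
RMA values (log2, vertical axis) of every probe set of Il1rl1, Il33, Il1rap and Il1r1 in the 8 groups, with a point for each array, a bar for the mean with its SD and an asterisk for the probe set that stands for the gene. The 2 probe sets of Il1rl1 differed in LSECs of the 3DHLK model, and those of Il1rap in KC monolayers, whereas the 3 probe sets of Il1r1 all had KC monolayers at the bottom.

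Il1rn, the receptor antagonist, had its highest arrays in KC monolayers and in LSECs of the 3DHLK model. LSECs gave 10.63, 11.10 and 11.06 in the 3DHLK model, against 9.26, 9.37 and 9.58 in the 3DHL model. No arrays overlapped, and Il1rn was 2.88-fold higher in the 3DHLK model (log2 change 1.53 ± 0.18, adjusted p = 1.04e-05, limma). Hepatocytes gave 9.88, 9.77 and 9.56 in the 3DHLK model, against 9.38, 9.18 and 9.06 in the 3DHL model, with a log2 difference of 0.53 ± 0.18 that was not called (adjusted p = 0.063). It was called in a fit to only those 6 arrays (adjusted p = 0.024), in a fit without KC monolayers (0.013) and with cyclic loess (0.0070). The LSEC change exceeded the hepatocyte change by 0.998 ± 0.26 log2 units (adjusted p = 0.013). In the LSEC comparison 2 of 14 macrophage markers were higher, Cd68 and Cd14, and none lower. The sum of that list was 97.4 to 100.8 in the 3DHLK model and 93.9 to 95.0 in the 3DHL model. Of 11 endothelial markers 1 was higher, and of 12 stellate cell and fibroblast markers 1 was lower. The part of these markers in the result was not tested.

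In KCs, Il1rn read 8.84 and 8.59 in the 3DHLK model, against 11.72, 10.89 and 11.11 in KC monolayers, 5.76-fold lower in the 3DHLK model (log2 change -2.53 ± 0.20, adjusted p = 3.73e-10, limma). The KCs of the 3DHLK model were thus the lowest group of all 8. LSECs of that model stood 4.64-fold above its KCs (log2 change 2.21 ± 0.20, adjusted p = 6.31e-08), and hepatocytes 2.03-fold above its KCs (adjusted p = 0.00027). CS gave 10.38, 10.19 and 10.05 and HM 9.24, 9.58 and 9.21, a 1.82-fold higher value in CS (log2 change 0.86 ± 0.18, adjusted p = 0.00128, limma). Of the stellate cell and fibroblast markers 8 of 12 were higher and 1 lower in CS than in HM, with array means of 7.61 to 8.81 in CS and 6.25 to 8.12 in HM. Of 11 endothelial markers 4 were higher in CS, of 11 hepatocyte markers 3 and of 14 macrophage markers 1, and none of these was lower. Of 5 cholangiocyte markers 3 were lower and none higher. The part of all these markers in the differences between CS and HM was not tested.

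The 250 bases before Il1rn, at chr3:27520072-27520321 on the plus strand of GRCr8 (RefSeq), are given as those of the family member called in LSECs that has 1 probe set.
Il1rn: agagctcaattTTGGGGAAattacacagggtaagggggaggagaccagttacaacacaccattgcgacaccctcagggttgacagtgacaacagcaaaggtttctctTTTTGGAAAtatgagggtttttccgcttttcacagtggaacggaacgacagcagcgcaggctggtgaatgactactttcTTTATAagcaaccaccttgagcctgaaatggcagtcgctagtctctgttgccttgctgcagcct
Capitals mark C/EBP matches (TTNNGNAA), of which 2 overlap 143 to 135 bases before the start, and TTTATA, the TATA box letters on the other strand, 64 to 59 bases before it.

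Il1r1, the signaling receptor for IL-1, was lowest in KC monolayers. It read 10.64 and 10.20 in KCs of the 3DHLK model, against 8.89, 7.69 and 8.54 in KC monolayers, 4.13-fold higher in the 3DHLK model (log2 change 2.05 ± 0.25, adjusted p = 2.74e-07, limma). The other probe sets gave 1.45 ± 0.16 and 1.65 ± 0.24. Hepatocytes gave 10.86, 10.79 and 11.46 in the 3DHLK model and 10.998, 11.12 and 10.86 in the 3DHL model, 11.11, 10.69 and 10.64 in CS and 11.74, 11.77 and 11.64 in HM. LSECs gave 10.08, 9.92 and 10.005 in the 3DHLK model and 10.33, 10.17 and 10.49 in the 3DHL model. On the chosen probe set HM was thus above every other group, the hepatocytes of the 3D models and CS overlapped each other, and LSECs lay below the hepatocytes of their own model. On the probe set that gave 1.65, HM overlapped hepatocytes of the 3DHLK model (means 10.82 and 10.75). On both other probe sets hepatocytes of the 3DHL model overlapped neither CS nor hepatocytes of the 3DHLK model. CS was 1.87-fold below HM (log2 change -0.90 ± 0.22, adjusted p = 0.00495), and LSECs were 2.05-fold below hepatocytes in the 3DHLK model (-1.04 ± 0.22, adjusted p = 0.0005, limma), with log2 changes of -0.60 and -1.85 on the other probe sets.

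Il1rap, the accessory protein shared by the IL-1 and IL-33 receptors, also had its lowest arrays in KC monolayers on its chosen probe set. It read 9.07 and 9.03 in KCs of the 3DHLK model, against 7.34, 7.18 and 7.24 in KC monolayers (log2 change 1.80 ± 0.14, adjusted p = 3.35e-10, limma). On the second probe set the values were 7.30 and 7.55 in KCs of the 3DHLK model, against 7.48, 7.85 and 7.53 in KC monolayers, so that the groups overlapped (log2 change -0.20 ± 0.18, adjusted p = 0.36). LSECs gave 9.43, 9.14 and 9.03 in the 3DHLK model and 9.50, 9.28 and 9.40 in the 3DHL model. Hepatocytes gave 8.82, 8.87 and 8.73 in the 3DHLK model and 8.50, 8.53 and 8.66 in the 3DHL model, 9.07, 9.57 and 9.36 in CS and 8.97, 9.22 and 8.99 in HM. On the chosen probe set the 5 groups from LSECs of the 3DHL model to KCs of the 3DHLK model overlapped as neighbours in order, above the hepatocytes of the 3D models. The second probe set gave another order, with the highest mean in HM (8.12). There hepatocytes of the 3DHL model had a higher mean (7.69) than LSECs (7.52) and KCs (7.43) of the 3DHLK model. LSECs were 1.78-fold above hepatocytes in the 3DHL model (log2 change 0.83 ± 0.13, adjusted p = 3.69e-05), which the second probe set did not call (0.39 ± 0.16, adjusted p = 0.065, limma).

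Il1r2, the decoy receptor, was highest in the hepatocytes of the 3D models, at array percentiles 44.9 to 56.3. Hepatocytes gave 7.17, 7.42 and 7.73 in the 3DHLK model and 7.72, 7.91 and 7.58 in the 3DHL model, 5.73, 6.19 and 6.22 in CS and 5.76, 6.28 and 5.86 in HM. The hepatocytes of both 3D models overlapped each other and lay above every array of the 6 other groups. Hepatocytes of the 3DHL model exceeded HM 3.42-fold (log2 change 1.77 ± 0.22, adjusted p = 9.48e-06) and CS 3.23-fold (1.69 ± 0.22, adjusted p = 6.90e-06, limma). In these hepatocytes 4 of 11 hepatocyte and 2 of 5 cholangiocyte markers were lower than in HM, and none higher. Against CS 5 of 11 hepatocyte markers were lower and none higher. Of 14 macrophage markers 1 was higher than in HM, and 2 were higher and 1 lower than in CS. The part of these markers in the result was not tested. LSECs gave 5.54, 5.71 and 5.66 in the 3DHLK model and 5.51, 5.43 and 4.78 in the 3DHL model, 3.49-fold and 5.65-fold below the hepatocytes of the same model (adjusted p = 6.50e-07 and 1.94e-08). KCs gave 5.90 and 5.83 in the 3DHLK model, against 6.21, 5.95 and 6.89 in KC monolayers, a log2 difference of -0.48 ± 0.24 that was not called (adjusted p = 0.088). It was called with the arrays centred on housekeeping genes (-1.11, adjusted p = 0.00063) and without KC monolayer replicate 2 (-0.68, adjusted p = 0.021, limma).

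Counted by cell type, LSECs differed from hepatocytes in all 10 genes in the 3DHLK model, 5 higher and 5 lower, where 60.4% of all genes were called (34.7% higher, 25.7% lower). The call of Il1rap was lost without LSEC replicate 1 (adjusted p = 0.088) and on its second probe set (0.30, limma). In the 3DHL model 7 differed, 3 higher (Il1b, Il33 and Il1rap) and 4 lower (Il18, Il1r1, Il1rl1 and Il1r2), where 40.4% of all genes were called (18.5% higher, 21.9% lower). Il1r1 passed there at an adjusted p of 0.022, lost without LSEC replicate 1 (0.053) or 2 (0.084) or hepatocyte replicate 1 (0.052) or 2 (0.074, limma), while its other probe sets were called. In the 3DHLK model, 3 genes differed between LSECs and KCs, Il33 and Il1rn higher and Il1rl1 lower in LSECs, against 15.1% of all genes (9.73% higher, 5.35% lower). The Il1rl1 change was -3.50 ± 0.33 on the chosen probe set and was not called on the second (-0.53 ± 0.21, adjusted p = 0.10, limma). Between its hepatocytes and KCs 8 differed, with Il18, Il1rn, Il1r1, Il1r2 and Casp1 higher and Il1a, Il1b and Il33 lower in hepatocytes, against 56.5% of all genes (25.9% higher, 30.6% lower). Of these, the calls of Il18 and Il1r1 were lost without KC replicate 2 (adjusted p = 0.34 and 0.32) or without hepatocyte replicate 3 (0.066 and 0.19, limma).

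Markers of other cells moved with these comparisons of cell types, and their part in the results was not tested. Between LSECs and hepatocytes of the 3DHLK model, 11 of 12 stellate cell and fibroblast markers were lower and none higher in LSECs, with sums of log2 values of 74.5 to 78.3 in LSECs against 117.1 to 119.4 in hepatocytes. Of 14 macrophage markers 9 were lower and 2 higher (97.4 to 100.8 against 108.2 to 114.0), of 5 cholangiocyte markers 4 were lower, and of 11 hepatocyte markers 7 were higher in LSECs (148.9 to 149.3 against 141.8 to 143.5). Lymphocyte markers were higher in LSECs for 7 of 8 genes and lower for none, and mast cell markers higher for 5 of 7 and lower for 1. Neutrophil markers were higher for 3 of 5 and lower for 2. Of 11 endothelial markers 4 were higher and 4 lower in LSECs (69.1 to 70.1 against 74.1 to 75.8). In the 3DHL model 7 of 12 stellate cell and fibroblast markers were lower in LSECs (74.4 to 75.8 against 90.6 to 94.5), and 4 of 5 cholangiocyte markers. There 5 of 8 lymphocyte and 2 of 7 mast cell markers were higher in LSECs and none of these lists lower, and of 14 macrophage markers 2 were higher and 3 lower. Between hepatocytes and KCs of the 3DHLK model, hepatocytes had higher values for 10 of the 12 genes of that list (117.1 to 119.4 against 77.6 to 78.9). Of the macrophage markers 9 were higher and 3 lower in these hepatocytes (108.2 to 114.0 against 97.3 to 101.0), of the cholangiocyte markers 4 of 5 were higher, and of 11 endothelial markers 4 were higher and 7 lower (74.1 to 75.8 against 75.7 to 76.1). Lymphocyte markers were lower in these hepatocytes for 6 of 8 genes and higher for none, and mast cell markers lower for 5 of 7 and higher for 1. Of 5 neutrophil markers 3 were lower and 1 higher, and of 11 hepatocyte markers 3 were higher and 1 lower. Between LSECs and KCs of that model 9 of 11 hepatocyte markers were higher and 6 of 11 endothelial markers lower in LSECs.

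Against HM, KC monolayers had Il1b 139-fold, Il1a 37.5-fold, Casp1 16.3-fold, Il18 8.56-fold and Il1rn 3.72-fold higher, and Il1r1 10.1-fold, Il1rl1 4.31-fold and Il1rap 3.51-fold lower, so that 8 of 10 genes were called beside 70.2% of all genes (25.4% higher, 44.7% lower). Il33 was not called on its chosen probe set (log2 change 0.16 ± 0.18, adjusted p = 0.43) but was higher in KC monolayers on its second (0.78 ± 0.16, adjusted p = 0.00024, limma). The cells of this pair differ in type, source and day, which cannot be told apart. Between CS and HM 4 genes were called (21.8% of all genes, 11.1% higher and 10.7% lower), Il33 and Il1rn higher and Il18 and Il1r1 lower in CS. Between hepatocytes of the 3DHL model and HM 4 were called as well (11.7% of all genes, 7.04% higher and 4.7% lower), Il1rl1 and Il1r2 higher and Il1r1 and Il1rap lower; without 1 array at a time only 1 or 2 of them were, Il1r2 each time and Il1rap without HM replicate 1 or 3 or 3DHL replicate 3. No other probe set was called there for Il1r1 (-0.41 and -0.29, adjusted p = 0.071 and 0.45), Il1rap (-0.43, adjusted p = 0.10) or Il1rl1 (0.54, adjusted p = 0.069, limma). Il33 was lower in these hepatocytes on its second probe set (-0.56, adjusted p = 0.029), while its chosen one was not called (-0.53, adjusted p = 0.057, limma). The 3 comparisons with HM share its arrays. Between hepatocytes of the 3DHL model and CS 6 were called (21.8% of all genes, 12.8% higher and 9.03% lower), Il18, Il1rl1 and Il1r2 higher and Il33, Il1rn and Il1rap lower. The call of Il1rl1 was lost there without CS replicate 2 (adjusted p = 0.13) or 3 (0.054), without 3DHL replicate 2 (0.084) or 3 (0.079, limma), and on the second probe set, whose log2 change was -0.22. The second probe set of Il1rap was not called there either (-0.19 ± 0.16, adjusted p = 0.45). Il1r1 was higher in these hepatocytes than in CS on 1 of its other probe sets (0.45 ± 0.14, adjusted p = 0.027, limma). Its chosen probe set (0.18, adjusted p = 0.60) and its remaining one (0.42, adjusted p = 0.18, limma) were not called.

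Genes around the family were counted from lists of the IL-1 receptor complex and its signaling (25 of 28 genes measured), of the inflammasome and processing enzymes (13 of 21) and of genes that respond to IL-1 (25 of 25). Between KCs of the 3DHLK model and KC monolayers, 5 signaling genes were higher, 6 lower and 14 not called, where 65.2% of all genes were called, with a median log2 change of 0.12 against 0.27 over all genes. Sigirr, an inhibitory receptor of the family, was 4.08-fold higher and the kinase Chuk 2.23-fold higher, and the kinases Map3k8 and Irak2 were 6.36-fold and 3.23-fold lower. Of the inflammasome list 4 were higher, 5 lower and 4 not called (median 0.07). Pycard, the adaptor that joins caspase 1 to its sensors, was 7.01-fold lower and the ATP receptor P2rx4 2.62-fold lower, while Casp12 was 6.36-fold and Txnip, a thioredoxin inhibitor, 2.14-fold higher.

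Of the IL-1 response genes 9 were higher, 10 lower and 6 not called in KCs of the 3DHLK model against KC monolayers, with a median log2 change of -0.19. Ptgs2, which encodes cyclooxygenase 2, was 56.1-fold lower and Nfkbiz, a regulator of NF-κB target genes, 10.2-fold lower. Lcn2 and Orm1, both acute phase proteins of hepatocytes, were 280-fold and 239-fold higher. All 11 measured hepatocyte markers were higher and all 14 measured macrophage markers lower in this comparison, with sums of log2 values of 139.2 to 140.5 against 78.7 to 85.1 for the hepatocyte list and of 97.3 to 101.0 against 163.8 to 169.5 for the macrophage list. Their part in the changes of the family was not tested.

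Between hepatocytes of the 3DHLK and the 3DHL model, 3 of 13 inflammasome genes were higher and none lower: Pycard 2.82-fold (8.50, 8.52 and 8.77 against 7.01, 7.32 and 6.98), Gsdmd 2.17-fold, the pore protein that caspase 1 cleaves, and Txnip (log2 change 0.67). The list's median log2 change was -0.03, against -0.08 over all genes, of which 11.5% were called. Of the signaling list 3 were higher, among them Il1rl2, the IL-36 receptor, 2.38-fold and Map3k8 2.18-fold, and 2 were lower, Mapkapk2 1.55-fold and the IL-18 binding protein gene Il18bp 1.32-fold. Of the response list 4 were higher, among them Nfkbiz 4.13-fold and the adhesion molecule Vcam1 3.83-fold, and 2 were lower, Lif 1.72-fold and Ccl20 1.62-fold. Between LSECs of the 3DHLK and the 3DHL model no inflammasome gene was called by limma (4 of 13 had an unadjusted p under 0.05). Of the signaling genes Chuk was higher and Rela lower, and of the response genes 7 were lower and Nfkbiz was higher, at 8.61, 9.02 and 8.90 against 7.14, 7.37 and 7.22. The largest fall there was that of Ccl2, a monocyte chemokine, with a log2 change of -3.05 ± 0.34 (adjusted p = 4.57e-06, limma); the LSEC genes and Txnip in hepatocytes are named here after their values were seen.

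Over the 8 group means, the genes most like Il1b among 2831 genes whose means span at least 2 log2 units were Cd83, Il7r and the class II gene RT1-Da, with Pearson's r of 0.9996, 0.9993 and 0.9992. All 3 share with Il1b a single high group, KC monolayers, which sets such an r. Those most like Il33 were Ddi2 (0.96), Pnpla3 (0.93) and Slk (0.93), those most like Il1rl1 were Slc15a1 (0.93), Procr (0.91) and Gprc5a (0.89), and those most like Il1rn were Fgd4 (0.88), Acsf2 (0.87) and Gpcpd1 (0.86). On rat chromosome 9, Il1r2, Il1r1, Il1rl2, Il1rl1, Il18r1 and Il18rap lie in a row, with H3f3al3 between the first pair. The genes of that row that were followed here as members differed in their highest group. On the chosen probe sets it was HM for Il1r1 and hepatocytes of the 3DHL model for Il1rl1 and Il1r2. On the second probe set of Il1rl1 it was CS, with a mean of 9.27 against 9.05 in hepatocytes of the 3DHL model.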

How the data were processed

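RNA of each cell fraction was amplified and hybridised to Affymetrix Rat Genome 230 2.0 arrays. The authors checked the arrays with Simpleaffy and processed them with RMA in R, with no RMA version given in the sources used here, and deposited log2 values for 31099 probe sets. Of these, 57 are controls, 436 name several genes and 9780 none, and they were not used. The deposited log2 values were fitted with limma 3.58.1 in R 4.3.3, as 8 group means over 23 arrays, with 12 contrasts and moderated by eBayes, with Benjamini-Hochberg adjustment over 14217 genes at 0.05. A fold is 2 raised to the size of a log2 difference. No detection calls were used. Precision is limited by how few arrays each group has. The genes, the gene lists and the tests were chosen with earlier results of these data known. Named beside the 10 family members are the largest called rises and falls of each list in the KC and hepatocyte comparisons, and the 3 genes most correlated with Il1b, Il1rn, Il1rl1 and Il33. The code was tested on simulated data. Alternatives tried were fits of the compared arrays alone, a replicate block, the mean of a gene's probe sets, a filter that drops the 30% of genes with the lowest mean, normalization by cyclic loess or by housekeeping genes, trended and robust eBayes, no KC monolayers, and each array left out in turn. The other probe sets were added as an alternative after the data were seen. Figures used matplotlib 3.10.9 in Python 3.11.15.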

Additional observations from a re-analysis of the deposited data

Results flagged for a closer look

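For 3 genes the change between the 3DHLK and the 3DHL model differed between LSECs and hepatocytes by the interaction contrast of limma, given as the LSEC change minus the hepatocyte change. For Il1rn it was 0.998 ± 0.26 log2 units (SE, adjusted p = 0.013), with a change of 1.53 in LSECs and 0.53 in hepatocytes. For Casp1 it was -2.59 ± 0.45 (adjusted p = 0.0004), with 0.19 in LSECs and 2.78 in hepatocytes. For Il1rl1 it was -1.35 ± 0.42 (adjusted p = 0.043), with -2.09 in LSECs and -0.74 in hepatocytes, while the second probe set gave 1.10. The Il1rl1 call was lost in 11 of 12 fits that left out 1 array, with values of -1.80 to -1.06, and held only without LSEC replicate 1 of the 3DHLK model.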

How the results depend on the processing

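Of 87 member results recomputed, 65 were called, and, other probe sets aside, none of these changed sign under an alternative and 51 kept their call under every alternative that covered them. The filter on low genes left out 4 members, and the fit without KC monolayers left out the comparisons with that group. Neither tested the calls it left out. The replicate block changed no call of a member. Same-numbered arrays were not paired in the main fit. Of 77 same-numbered pairs from different groups, 13 correlated above 0.1 in their deviations from the group means. For 11 of 23 arrays the mean correlation was higher with arrays of their own number than with others. These counts pool all groups, so they cannot exclude a pairing of fractions from the same culture. Counts of called genes moved with the arrays and genes fitted. Fitting only the arrays compared gave 5905 genes for KCs against their monolayers (9276 in the shared fit), 2509 for LSECs between both 3D models (1062), 2906 for the interaction (1467), 4469 for 3DHL hepatocytes against HM (1669) and 4730 against CS (3103). Without KC monolayers these last 4 were 2335, 3042, 3253 and 5178, and there were 3035 for hepatocytes between both 3D models (1631) and 3639 for LSECs against KCs (2145). In that hepatocyte comparison 3 members were called with only its arrays, 2 with the mean of probe sets, cyclic loess or no KC monolayers, and 0 without low genes, against 1. Leaving out low genes drops Il1a, Il1b, Il1r2 and Casp1, so that 6 members were called for 3DHLK LSECs against hepatocytes (10), 4 for hepatocytes against KCs (8; 5294 against 8033 genes) and 5 for KC monolayers against HM (8). Without 1 array, the counts ranged from 1085 to 1610 for hepatocytes between both 3D models, 565 to 967 for LSECs, 1262 to 1860 for LSECs against KCs and 945 to 1147 for 3DHL hepatocytes against HM. The first was lowest without 3DHL replicate 2, and the LSEC count was 565 and 697 without 3DHL replicates 1 and 2 and 595 and 569 without 3DHLK replicates 2 and 3. The count against KCs was lowest without KC replicate 2, and that against HM moved by over 1.5 times without HM replicate 1 or 3 or any 3DHL replicate, with 1 to 2 members called there (4). The sign turned in uncalled results for Il33 on its chosen probe set (-0.030 to 0.31 without 1 array) and Il1r2 (-0.014 with cyclic loess) in KC monolayers against HM. On another probe set it turned for Il33 (-0.069) and Il1rap (-0.20) in KCs, Il1r1 (0.052) and Il1rl1 (0.081) in LSECs, Il1r1 (0.14) and Il1rl1 (1.10) in the interaction, Il1rl1 in hepatocytes against KCs (-0.45) and against CS in the 3DHL model (-0.22), and Il1rap in CS against HM (-0.24). Centring on housekeeping genes changed the share of calls that were higher: 29.3% against 68.2% for KCs, 56.1% against 67.3% for hepatocytes and 32.8% against 47.9% for LSECs of the 3D models, 87.4% against 64.5% for LSECs against KCs, 67.2% against 45.8% for hepatocytes against KCs, 55.6% against 36.2% for KC monolayers against HM, 34.4% against 50.8% for CS against HM, and 69.6% against 58.6% for 3DHL hepatocytes against CS. With cyclic loess the share was 56.7% for KCs and 77.8% for hepatocytes of the 3D models. Without KC monolayers it was 48.8% for these hepatocytes and 53.7% for the interaction (34.0%; 51.5% with only its arrays). Without low genes it was 58.5% for hepatocytes against KCs and 22.3% for KC monolayers against HM. Without 3DHL replicate 2 or 3DHLK replicate 1 it was 79.5% and 78.4% for the hepatocytes. Except where genes or arrays were left out by construction, the cause was not tested.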
